A study of Mus musculus with 8 samples.

Results

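The genes described here are 10 regulators of the G1 phase of the cell cycle: the D-type cyclins Ccnd1, Ccnd2 and Ccnd3, the E-type cyclin Ccne1, the kinases Cdk4 and Cdk6, and the kinase inhibitors Cdkn1b, Cdkn1c, Cdkn2a and Cdkn2c. They were taken by symbol from the platform annotation, which gave 16 probe sets (groups of short probes for 1 transcript) among the 24833 of the series that are not controls. The A chip holds 12 of them and the B chip 4. Mice heterozygous for p63 were crossed, and their embryos were taken at E18.5, late in gestation. Whole skin of 2 p63 null embryos and 2 wild-type embryos was hybridised to 1-colour arrays of both chips, 8 arrays in all. The labels give no allele, strain or sex, and they state no treatment. Signals are MAS5 intensities, already scaled per array, and the chips carry different probe sets and were analysed apart.

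D-type cyclins bind Cdk4 or Cdk6 and begin the phosphorylation of the retinoblastoma protein, which releases E2F transcription factors. Cyclin E with Cdk2 carries the cell on into S phase. Inhibitors of the Ink4 family (Cdkn2a, Cdkn2c) bind Cdk4 and Cdk6, and those of the Cip/Kip family (Cdkn1b, Cdkn1c) bind complexes of cyclins and kinases. In the epidermis these genes are known for setting when basal cells divide and when they leave the cycle to differentiate, and p63 (gene Trp63) is a transcription factor known to be needed for that tissue.

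The A chip's probe set for Trp63 read 379.3 and 347.1 in wild type, against 61.9 and 46.6 in the null (log2 fold change -2.49, limma adjusted p = 1.13e-05). The place of its probes relative to the mutated part is not stated in the labels or files, so this is a check of the labels only if they lie in it or depend on it. Signals of cell type markers differed between the genotypes. On the A chip, 10 basal keratinocyte genes summed to a signal of 11249 and 11168 in wild type, against 1194 and 905 in the null, 11 skeletal muscle genes to 15639 and 16111 against 29077 and 34039, and 18 genes of proliferating cells to 9811 and 9836 against 5618 and 5329. None of these genes was at 0 in all arrays. By limma 6 of 7 tested basal keratinocyte genes and 6 of 7 hair follicle genes fell on that chip and 0 rose, while 8 of 9 leukocyte, 7 of 8 adipocyte and 5 of 7 endothelial genes rose and 0 fell, against 22.4% of all genes higher and 22.8% lower. The basal keratins Krt5, Krt14 and Krt15 were too low on the A chip to be tested. The ratio of 3' to 5' signal of beta-actin, which follows RNA integrity and labelling, was 1.63 and 1.69 for the A chip's wild-type arrays, against 1.27 for each null array. The B chip gave 1.505 and 1.98 against 1.36 and 1.33. The same ratio for Gapdh was 1.47 and 2.46 against 1.25 and 1.45 on the A chip, and 1.55 and 2.66 against 1.26 and 1.51 on the B chip, so that wild-type embryo 2 stood apart and wild-type embryo 1 lay near null embryo 2. The null array numbered 2 stood apart on each chip in the CreX spike, a control transcript added to every sample: its 3' probe set read 6419.5 on the A chip, where the remaining arrays gave 3333.7 to 3836.8, and 32512 on the B chip, where they gave 16965.6 to 18942.4. In bulk skin, fewer cells of a type and less RNA per cell cannot be told apart.

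Within the gene set, Cdkn1c and Ccnd3 rose in null skin and Ccnd1 fell, all by less than 2-fold. Of the 9 A-chip probe sets that passed the filter on low signals, 2 were higher and 1 lower by limma. Among all 7453 probe sets tested on that chip 22.1% were higher and 22.2% lower, 44.3% in all, so that 3 of 9 is no more than the share of the whole chip. At an unadjusted p below 0.05 the count was 6 of 9, against 51.6% of all. The median log2 fold change was -0.27 over these 9 and 0.02 over all. The 2 tested B-chip probe sets, 1 each of Ccnd3 and Cdk6, gave 0 calls by limma, and 0 at an unadjusted p below 0.05, where 29.4% of 7446 passed after adjustment (14.5% higher, 14.9% lower) and 42.0% before. The genotypes did not overlap for 7 of the 9 A-chip probe sets and 1 of the 2 on the B chip, against 74.0% and 67.7% of all tested. The change of Cdkn1c, the largest of the 9 in size, was reached or passed by 27.0% of A-chip probe sets. The other 5 probe sets (3 A-chip, 2 B-chip) were too low to be tested.

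**Figure D1:**
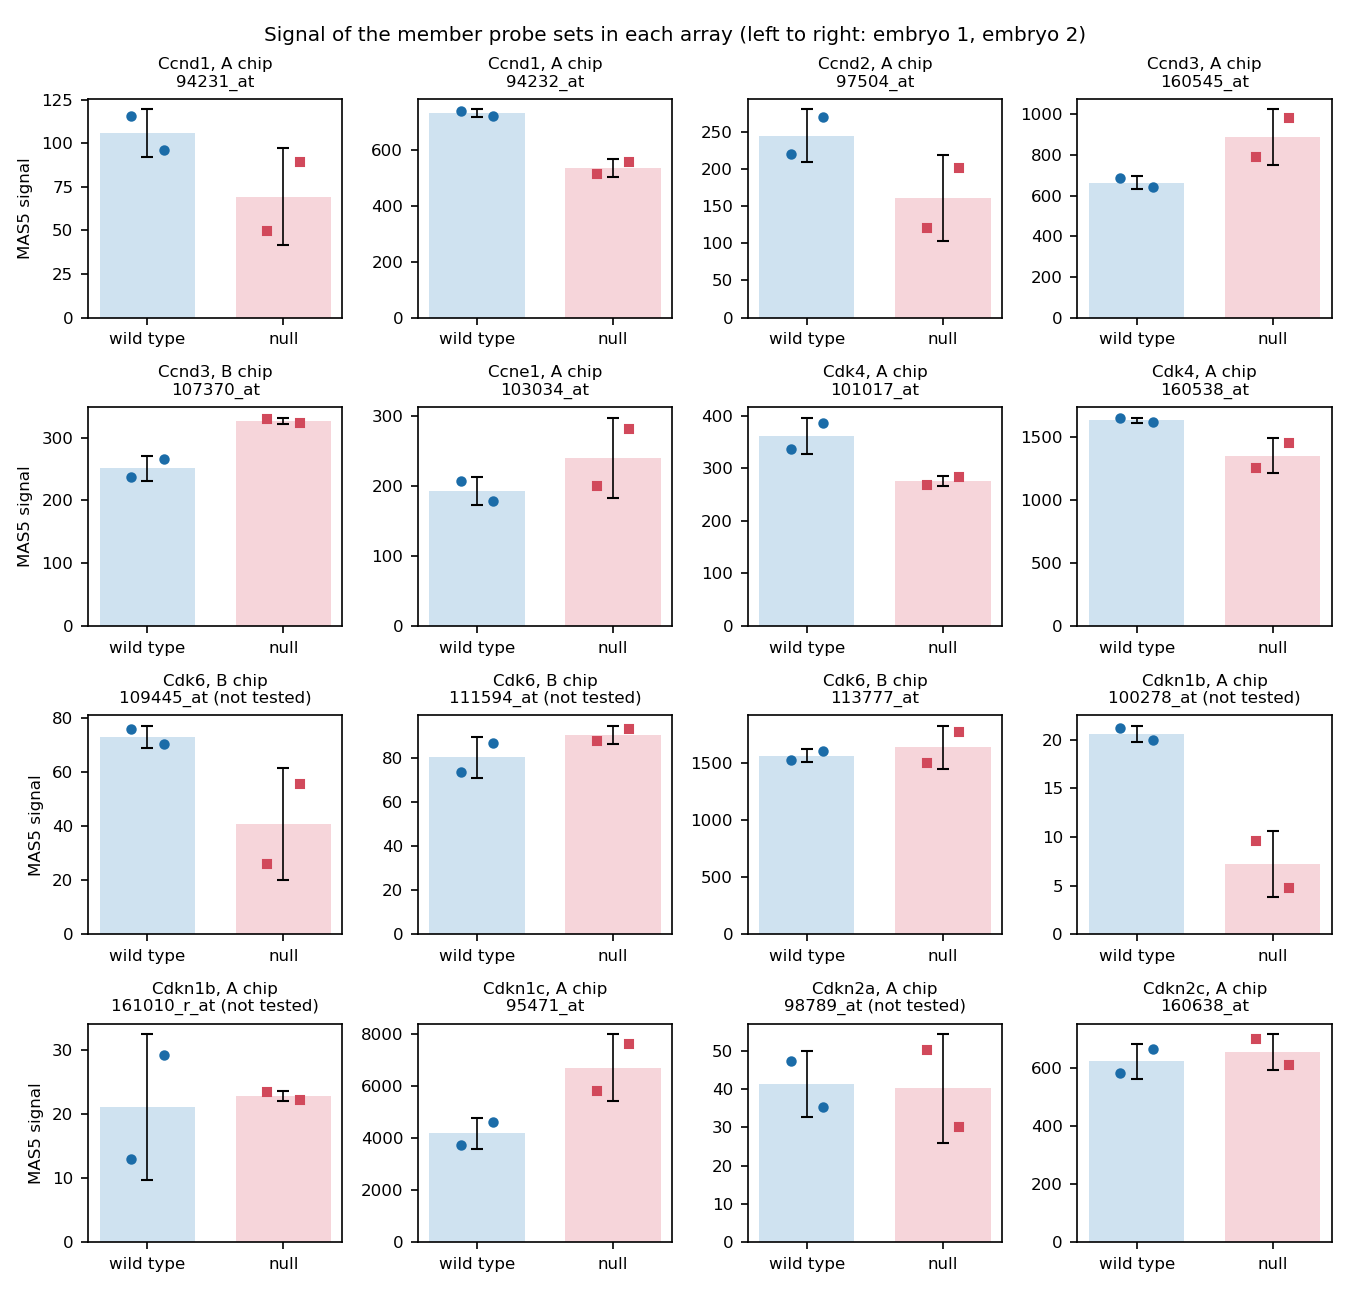
MAS5 signal (linear axis from 0, arbitrary units) of each of the 16 probe sets in the wild-type arrays (circles) and null arrays (squares), with embryo 1 to the left of embryo 2. Bars are means and error bars SD (n = 2). Cdkn1c rises from a mean of 4183 to 6708, Ccnd1 94232_at falls from 729.6 to 535, and the probe sets marked as not tested read at most 93.4.

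Cyclin D1 (Ccnd1), the partner of Cdk4 and Cdk6 that mitogens induce in many epithelia, fell on its brighter probe set. Probe set 94232_at read 739.8 and 719.4 in wild type, against 513 and 557 in the null. All wild-type values lay above all null values, and the gap between genotypes was wider than the spread within either. Its log2 fold change was -0.44 (SE 0.12, limma adjusted p = 0.0155), or 0.737 times the wild-type level on the offset scale. The call was lost without wild-type embryo 1 (adjusted p = 0.0774) and without wild-type embryo 2 (0.0665), while the fold change stayed between -0.50 and -0.38 whichever array was left out. The second probe set, 94231_at, read 115.4 and 96 in wild type, against 49.7 and 89 in the null. The genotypes again did not overlap, but the null embryos differed from each other by more than the null embryo 2 differed from wild type. Its log2 fold change of -0.57 (SE 0.26) missed the threshold with an adjusted p of 0.105 by limma. It was -0.92 without null embryo 2 and -0.21 without null embryo 1.

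Cyclin D2 (Ccnd2) has the same kinase partners. Its probe set 97504_at read 219.9 and 269.7 in wild type, against 120.4 and 201.3 in the null. The groups did not overlap, and null embryo 2 lay close to wild-type embryo 1. The log2 fold change of -0.60 (SE 0.23, limma adjusted p = 0.0578) was the most negative of the 11 tested probe sets and missed the threshold. It was -0.95 without null embryo 2 and -0.26 without null embryo 1, so this value rests on which null embryo is read. Without wild-type embryo 1 it was -0.74, and it passed with median scaling (-0.61, limma adjusted p = 0.0434).

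Cyclin D3 (Ccnd3), the D-type cyclin known for its role in differentiating tissues such as skeletal muscle, rose on the A chip. Probe set 160545_at read 688.6 and 640.6 in wild type, against 790 and 984.5 in the null, with no overlap and the highest value in null embryo 2. The log2 fold change was 0.40 (SE 0.14, limma adjusted p = 0.0384). Leaving out wild-type embryo 1 (adjusted p = 0.0718), wild-type embryo 2 (0.180) or null embryo 2 (0.169) ended the call, and the fold change ran from 0.25 without null embryo 2 to 0.56 without null embryo 1. It was also lost with median scaling (adjusted p = 0.0565), with no filter (0.0743) and with no variance trend (0.0842). The B-chip probe set 107370_at read 237.1 and 265.3 in wild type, against 330.6 and 323.4 in the null, which again did not overlap. Its log2 fold change was 0.32 (SE 0.20, limma adjusted p = 0.257) and did not pass. The summed signal of the skeletal muscle genes, which about doubled in the null arrays, moved with Ccnd3, as did the adipocyte, leukocyte, endothelial and fibroblast lists, whose medians were also above 0. Their part in the result was not tested.

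The mean readings of the D-type cyclins thus moved in different directions, though the fall of Ccnd2 missed the threshold. On the log2 scale the ratio of Ccnd3 160545_at to Ccnd1 94232_at within an array was -0.10 and -0.16 in wild type, against 0.61 and 0.81 in the null, a shift of 0.84. The ratio of Ccnd3 to Ccnd2 shifted by 1.00, from 1.59 and 1.21 in wild type to 2.59 and 2.22 in the null. For both ratios the null arrays lay above the wild-type arrays. That follows from the readings of each probe set given above and adds no support. These ratios were chosen after the values were seen, and the exact two-sided permutation test over 4 arrays cannot go below the 0.333 that each gave. The size of a ratio has no meaning across probe sets, and only its shift between genotypes does.

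RefSeq gives Ccnd3 2 start sites, which the single signal of a probe set does not separate. The 250 bases before each start (GRCm38.p6, plus strand, 5′ to 3′) are shown because the probe sets of both chips gave a higher mean for this gene. Capitals mark the GC box GGGCGG, a site bound by Sp1-type factors, searched on both strands.
Ccnd3 upstream start, chr17:47504801-47505050: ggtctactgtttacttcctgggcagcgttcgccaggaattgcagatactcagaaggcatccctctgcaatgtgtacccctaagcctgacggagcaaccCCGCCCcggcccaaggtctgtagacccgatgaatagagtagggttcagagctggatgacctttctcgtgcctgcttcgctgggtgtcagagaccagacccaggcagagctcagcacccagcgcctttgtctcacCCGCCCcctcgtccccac
Ccnd3 downstream start, chr17:47593217-47593466: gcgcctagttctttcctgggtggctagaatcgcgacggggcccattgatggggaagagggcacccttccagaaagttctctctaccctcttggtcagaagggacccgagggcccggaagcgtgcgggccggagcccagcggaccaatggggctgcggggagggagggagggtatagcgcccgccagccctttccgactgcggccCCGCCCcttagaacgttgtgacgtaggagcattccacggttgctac
The first window holds 2 such boxes and the second 1. Of the 32851 windows of this length before RefSeq starts, several of which can belong to 1 gene, 32.7% hold at least 1.

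Cyclin E1 (Ccne1), which activates Cdk2 at the entry to S phase, read 207 and 178.8 in wild type, against 199.5 and 280.5 in the null on probe set 103034_at. Null embryo 1 lay between the wild-type values and null embryo 2 above them. The log2 fold change of 0.28 (SE 0.19, limma adjusted p = 0.2501) did not pass, with a 95% confidence interval from -0.14 to 0.70. Without null embryo 1 it was 0.52, and without null embryo 2 it was 0.05.

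Cdk4, the kinase that D-type cyclins activate, had lower means in the null on both of its probe sets, and neither passed the threshold. Probe set 160538_at read 1648.1 and 1615.8 in wild type, against 1253.7 and 1451.7 in the null (log2 fold change -0.27, SE 0.12, limma adjusted p = 0.0915). Probe set 101017_at read 337.3 and 386.3 in wild type, against 268.4 and 282.7 in the null (-0.37, SE 0.14, limma adjusted p = 0.0548). The genotypes did not overlap on either. The 95% confidence intervals ran from -0.54 to -0.01 and from -0.69 to -0.06, before any adjustment for the number of probe sets. Probe set 160538_at passed with quantile normalization (limma adjusted p = 0.0361), and its log2 fold change was -0.38 without null embryo 2.

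The 250 bases before the RefSeq start of Cdk4 (GRCm38.p6, plus strand, 5′ to 3′) are shown because Cdk4 is known as a target of Myc proteins. The Myc-family gene Mycn, described with the listed G1/S genes, fell, while neither Cdk4 probe set passed the threshold. A link between Mycn and Cdk4 was not tested. Capitals mark the E-box CACGTG, which Myc proteins bind and which reads the same on both strands.
Cdk4, chr10:127063285-127063534: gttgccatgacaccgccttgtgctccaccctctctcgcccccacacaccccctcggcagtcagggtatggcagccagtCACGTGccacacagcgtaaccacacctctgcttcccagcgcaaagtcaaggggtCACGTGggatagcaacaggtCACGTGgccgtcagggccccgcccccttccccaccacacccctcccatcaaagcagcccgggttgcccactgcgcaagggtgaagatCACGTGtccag
The window holds 4 E-boxes, whose first bases lie 172, 118, 98 and 11 bases before the start. At least 1 occurs in 6.02% of the 32851 windows, and at least 4 in 7 windows. Of the 10 windows found for 7 of the 10 genes, that of Cdk6 also holds an E-box. No window was found for Ccnd1, Ccnd2 or Cdkn1c, so these genes were not searched for any site. None of the 10 held the half-site of the p53 family, which 7.13% of all windows hold, and a match or its absence in these letters is a description only.

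Cdk6, the other partner of D-type cyclins, is on the B chip. Its probe set 113777_at read 1520.3 and 1599 in wild type, against 1499.3 and 1765.5 in the null, so that the wild-type values lay within the null range. The log2 fold change was 0.06 (SE 0.14, limma adjusted p = 0.773), with a 95% confidence interval from -0.26 to 0.38, and it turned to -0.05 without null embryo 2. The other 2 Cdk6 probe sets were below the level for testing. Probe set 109445_at read 76.1 and 70.4 in wild type, against 26.2 and 55.6 in the null, and 111594_at read 73.8 and 86.9 against 87.5 and 93.4, means that moved in opposite directions at low signal.

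Cdkn1c, the imprinted Cip/Kip inhibitor that restrains growth and promotes cell cycle exit in the embryo, rose most. Probe set 95471_at read 3755 and 4611 in wild type, against 5800.6 and 7614.5 in the null. Every null value lay above every wild-type value, and the null embryos differed from each other by more than the gap between the genotypes. The log2 fold change was 0.67 (SE 0.16, limma adjusted p = 0.00808), a rise to 1.595 times the wild-type level with a log2 95% confidence interval from 0.32 to 1.03. It was 0.48 without null embryo 2 and 0.87 without null embryo 1. The call was lost without wild-type embryo 1, the lowest array (0.53, adjusted p = 0.121). The lists of 5 other cell types moved the same way. All 11 tested muscle genes (median log2 fold change 1.53) and 5 of 8 fibroblast genes (0.42) rose and none fell, beside the adipocyte (1.52), leukocyte (1.51) and endothelial (0.90) genes counted above. The summed fibroblast signal was 30557 and 28408 in wild type, against 33601 and 40551 in the null. Their part in the rise of Cdkn1c was not tested.

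Cdkn2c, an Ink4 inhibitor of Cdk4 and Cdk6, read 580 and 665.2 in wild type, against 697.1 and 609.4 in the null on probe set 160638_at. The genotypes overlapped. The log2 fold change was 0.07 (SE 0.13, limma adjusted p = 0.701), with a 95% confidence interval from -0.23 to 0.36, so a change of the size seen for Cdkn1c lay outside it. The value was -0.03 without wild-type embryo 1 and also -0.03 without null embryo 1.

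Cdkn1b and Cdkn2a were not measured well enough to compare. Cdkn1b, the Cip/Kip inhibitor that accumulates in resting cells, read 21.2 and 20 in wild type, against 9.6 and 4.8 in the null on probe set 100278_at. On 161010_r_at it read 13 and 29.1 against 23.4 and 22.2. The first was lower in both null arrays and the second overlapped, and both lay below the level for testing. With no filter on low signals 100278_at had a log2 fold change of -0.75 (limma adjusted p = 0.0446) and 161010_r_at one of 0.11 (0.817). Cdkn2a encodes an Ink4 inhibitor and, from a different start and reading frame, the Arf protein that stabilises p53. Its probe set 98789_at read 47.3 and 35.2 in wild type, against 50.2 and 30.2 in the null, below the level for testing and with overlapping genotypes (no filter, -0.05, limma adjusted p = 0.933).

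**Figure D2:**
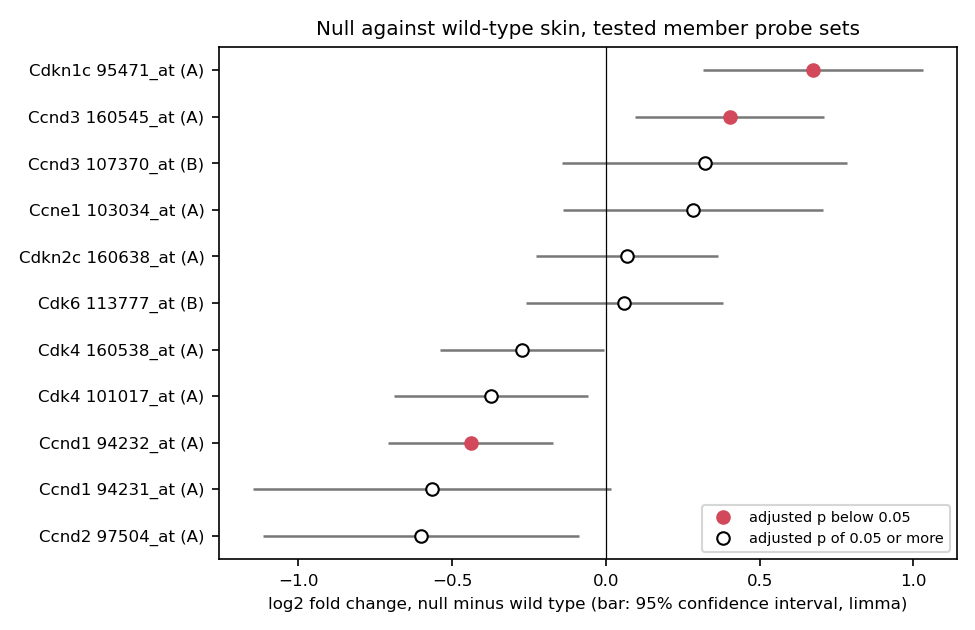
Log2 fold change (null minus wild type, limma) of the 11 tested probe sets with 95% confidence intervals as bars. Filled points passed an adjusted p of 0.05: Cdkn1c at 0.67, Ccnd3 160545_at at 0.40 and Ccnd1 94232_at at -0.44.

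The fold changes of Ccnd1 94231_at, Ccnd2 and Ccne1 moved furthest with the array left out. In each of these, null embryo 1 was the lower null array and null embryo 2 the higher. The same order held for Ccnd1 94232_at, Cdkn1c, Ccnd3 160545_at, both Cdk4 probe sets and Cdk6 113777_at, and was opposite for Cdkn2c and Ccnd3 107370_at. The share of all tested probe sets with this order is not given here, so the order cannot be called particular to these genes. Of the 11 probe sets, 9 kept the sign of their fold change under every alternative run, the exceptions being Cdk6 113777_at and Cdkn2c.

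**Figure D3:**
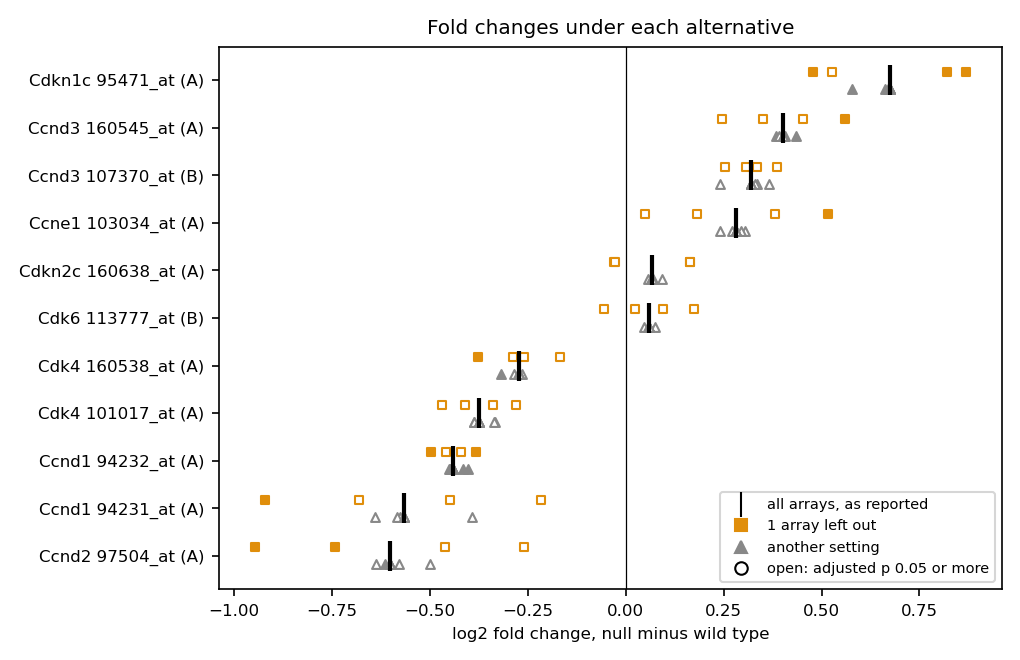
Log2 fold change (null minus wild type) of the 11 tested probe sets with all arrays (black line), with 1 array left out (squares) and under another setting (triangles). Filled symbols passed an adjusted p of 0.05. The squares of Ccnd2 spread from -0.95 to -0.26, those of Ccnd1 94232_at from -0.50 to -0.38.

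The rest of the G1/S pathway was read from a list of 44 other genes. On the A chip 35 were found, and Ccne2, Ccna1, Cdkn2b, E2f3 and Cdk5r1 were too low there. The other 30 were tested: 2 rose, 9 fell and 19 did not pass, with a median log2 fold change of -0.14 against 0.01 over all 5779 genes. Over those genes 22.4% were higher and 22.8% lower. Mycn, a Myc-family transcription factor expressed in embryonic epithelia, fell from 199.6 and 204.6 in wild type to 22 and 18.4 in the null (log2 fold change -2.70, SE 0.21, limma adjusted p = 1.39e-05). Its relative Myc read 94.2 and 97.6 against 73.4 and 71.3 and did not pass (-0.35, adjusted p = 0.170). Both null readings of Mycn lay below the level for testing, which its probe set passed through the wild-type arrays, and the size of the fold change moved with the added offset from -3.17 to -1.81. With the stricter filter, or with either wild-type array left out, it was not tested.

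Cdk2, Ccna2 and E2f8 were among those that fell, while E2f1 (0.18, limma adjusted p = 0.434) and Tfdp1 (-0.36, adjusted p = 0.0551) did not pass. Cdk2, the kinase of cyclin E, read 283 and 263.8 in wild type, against 198.2 and 181.9 in the null (-0.50, limma adjusted p = 0.0229), but leaving out wild-type embryo 1 (adjusted p = 0.119), wild-type embryo 2 (0.0712) or null embryo 2 (0.0659) ended that call. Ccna2, the cyclin A of S phase, read 759.1 and 697.4 against 415.1 and 482.4 (-0.69, adjusted p = 0.00266). E2f8, a repressor of the E2F family, read 228.6 and 191.2 against 128.7 and 98.1 (-0.82, adjusted p = 0.00696). Among all tested A-chip probe sets 74.0% did not overlap between genotypes, and these 3 genes were lower in both null arrays than in either wild-type array. Beside them, 15 of 17 tested genes of proliferating cells fell and 0 rose, with a median of -0.81. Their part in these falls was not tested.

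Subunits and a cofactor of the SCF ubiquitin ligase, and proteins that act on Cdk2, were also among the listed genes that fell on the A chip. Other listed genes of these kinds did not pass there. The values were -0.006 for Cdc25a (limma adjusted p = 0.978) and 0.02 for Fbxw7 (adjusted p = 0.957). Those of Cdk7 and Mnat1 were -0.04 (adjusted p = 0.895) and -0.05 (adjusted p = 0.794). On the B chip Fbxw7 (-0.29, adjusted p = 0.301) and Cdk7 (0.14, adjusted p = 0.469) did not pass either. Cks1b, the cofactor with which Skp2 recognises Cdkn1b, fell, with readings of 1381.5 and 1295.2 in wild type, against 746.2 and 893.2 in the null (-0.70, limma adjusted p = 0.00199). Skp1, a subunit of the SCF ubiquitin ligase, fell as well and read 1300.3 and 1264.3 against 788.2 and 590.5 (-0.90, adjusted p = 0.00115). Both lay lower in every null array, where 74.0% of all tested A-chip probe sets did not overlap. Cul1, the scaffold of the same ligase, fell on the A chip (-0.59, adjusted p = 0.00338) and rose on the B chip on another probe set (0.45, adjusted p = 0.0220), so its probe sets disagree. The B-chip call was lost without wild-type embryo 1 (adjusted p = 0.156), without wild-type embryo 2 (0.117), with no filter (0.0562) and with no variance trend (0.0713). Skp2 itself read 245.6 and 194.7 against 178 and 225 on the B chip, with overlapping genotypes (-0.10, adjusted p = 0.782). Cdkn3, a phosphatase of Cdk2, read 140.6 and 181 in wild type, against 54.6 and 72.8 in the null (-1.18, limma adjusted p = 0.00206). The size of its fold change moved with the added offset from -1.30 to -0.87, and it was not tested with the stricter filter. Cdk2ap1, a Cdk2-associated protein, fell by 0.38 (adjusted p = 0.0206). The call of Cdk2ap1 was lost without wild-type embryo 1 (adjusted p = 0.114), without wild-type embryo 2 (0.106) and with no variance trend (0.0594).

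The 2 that rose on the A chip were Ccng1, a cyclin induced by p53, from 375.6 and 328.7 to 509 and 583.3 (0.61, limma adjusted p = 0.00619), and Cdk5, a kinase best known in neurons, from 149.6 and 155.6 to 230.4 and 313 (0.77, adjusted p = 0.00745). A second Cdk5 probe set on the B chip read 312.6 and 292.7 against 270 and 247.5, lower in the null without passing (-0.19, adjusted p = 0.506). Cdkn1a, the Cip/Kip inhibitor that p53 induces, read 465.3 and 468.5 in wild type, against 410.1 and 445.2 in the null and did not pass (-0.12, adjusted p = 0.446). Cdkn2d, an Ink4 inhibitor, and Rb1, the retinoblastoma gene, did not pass either, with values of 0.19 (adjusted p = 0.293) and 0.33 (adjusted p = 0.202).

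On the B chip 15 genes of the list were tested, of which 3 rose, 2 fell and 10 did not pass, where 16.1% of all genes rose and 16.0% fell. Tfdp2, a dimer partner of E2F proteins, read 522 and 430.8 in wild type, against 826 and 798.4 in the null (0.71, limma adjusted p = 0.0170). Cables1, a Cdk-binding protein, rose by 0.54 (adjusted p = 0.0300) beside the rise of Cul1. Ccnh, the cyclin of the kinase that activates other Cdks, read 3084.3 and 2500.4 against 1733.4 and 1951.1 (-0.58, adjusted p = 0.0235), and E2f3, an activator of S phase genes, 1091.9 and 1136.9 against 820.1 and 801.2 (-0.43, adjusted p = 0.0481). Each of these 4 calls was lost when at least 1 array was left out. That of Tfdp2 was lost without wild-type embryo 2 (adjusted p = 0.125), that of Ccnh without wild-type embryo 1 (0.171), and that of Cables1 when wild-type embryo 1 (0.112), wild-type embryo 2 (0.161) or null embryo 2 (0.0715) was dropped. For E2f3 leaving out any of the 4 arrays ended the call, with adjusted p from 0.0512 to 0.256. The calls of Ccnh (0.0583), Cables1 (0.0556) and E2f3 (0.0775) were also lost with no variance trend, and that of E2f3 with median scaling (0.0685) and no filter (0.0603), all adjusted p-values by limma.

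**Figure D4:**
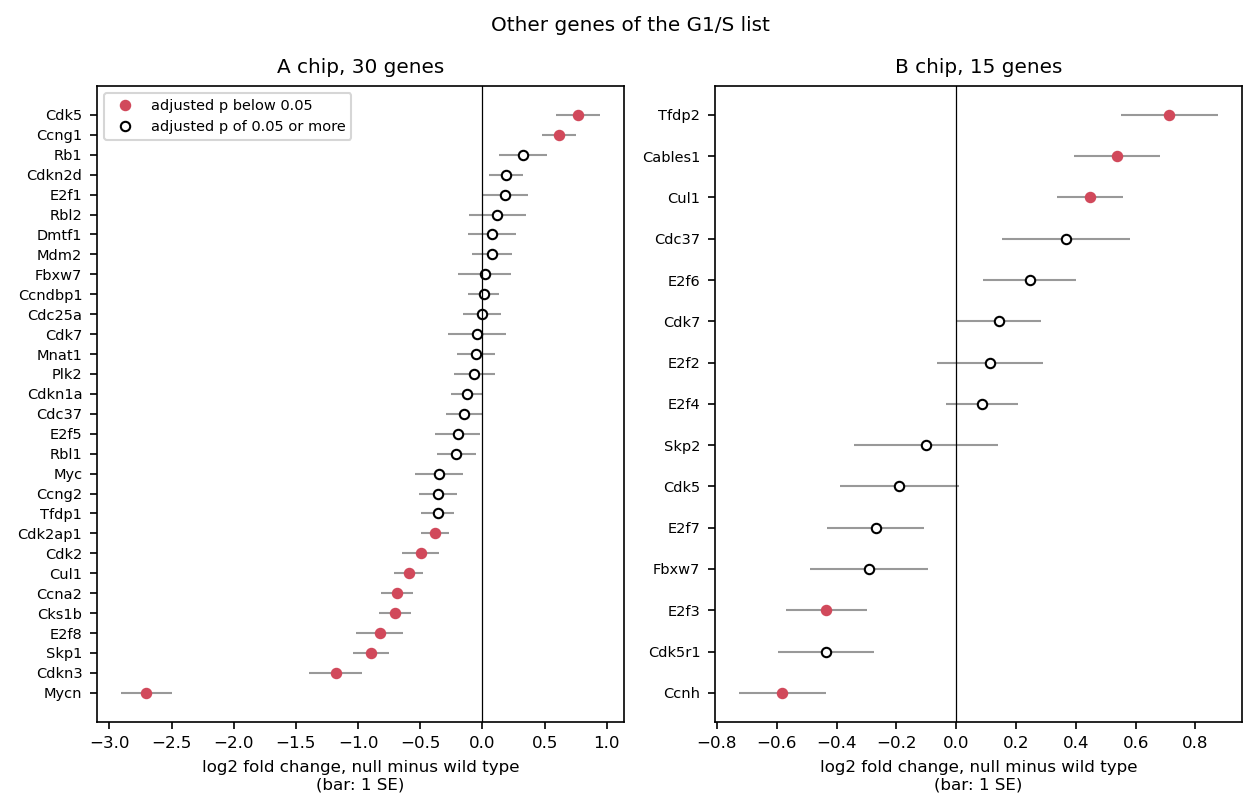
Log2 fold change (null minus wild type, limma) of the other listed G1/S genes tested on the A chip (30 genes) and the B chip (15 genes). Bars are 1 SE and filled points passed an adjusted p of 0.05. Mycn is plotted at -2.70, a size that depends on the offset because its null readings lay below the level for testing, and Cul1 is negative on the A chip and positive on the B chip.

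Values over the 4 arrays were compared after subtraction of each probe set's wild-type mean log2 value. Only tested probe sets with 1 symbol were ranked, with each gene taken once. The nearest to Cdkn1c were those of Celf2, Zfp524 and Tinagl1, at Euclidean distances of 0.07, 0.10 and 0.11. For Ccnd3 on the B chip the nearest were those of Cped1, Fblim1 and Ralgapb, at 0.03, 0.04 and 0.05. With only 4 arrays many probe sets lie near. At a wider cut of 0.25, 84 lay within that distance of Cdkn1c and 641 within that of Ccnd3, counting all tested probe sets, with or without a symbol.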

How the data were processed

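Per the labels' protocols, whole skin was extracted in TriZol, and the total RNA was purified with RNeasy and biotin-labelled. The deposited values are linear intensities, made by the authors with MAS5 according to the submitters' processing notes. Its version and detection calls, and a genome build, were not given in the sources used here. Arrays had been scaled before deposit: the 2% trimmed mean was 250.1 to 250.2 (A chip) and 500.1 (B chip).

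Each array was rescaled to 1 trimmed mean per chip, and the 20th percentile of the chip's signals (12.9 for A, 54.3 for B) was added before log2. Without the 66 control probe sets per chip, those with a mean log2 value above the 40th percentile were tested, a cut equal to a signal of about 54.0 for A and 167 for B. Fold changes (null minus wild type) are on the log2(signal + offset) scale, which understates changes of low signals. Limma 3.58.1 in R 4.3.3 (lmFit, eBayes with an intensity trend, two-sided) gave every p unless another test is named, with Benjamini-Hochberg adjustment over all probe sets tested on the chip and a threshold of 0.05. No pairing was used. The p-values rest on the spread between 2 arrays per genotype and chip, moderated by eBayes towards that of other probe sets of like intensity. The 2 arrays per genotype and chip limit the precision. The fit was also run on simulated data with the same spread for every probe set and 200 of them changed. That setting differs from these data, so it does not show how reliable the calls here are.

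All probe sets with 1 member symbol in the platform annotation are accounted for. Other G1/S genes were read by the tested probe set with the highest mean, and those past the threshold were named, up to 12 a chip. Members and lists were chosen with earlier results of these data known. Alternatives covered scaling, quantile normalization, offset, filter, variance trend, a replicate block and each array left out. A fit with 1 array left out keeps 1 array of that genotype, so its residual spread comes from the other genotype only. Its p-values can be smaller than with all arrays and are not stronger support.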

Additional observations from a re-analysis of the deposited data

How the results depend on the processing

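The 2 arrays per genotype and chip limit every call. Leaving out 1 array gave 0 to 3 higher and 0 to 4 lower member probe sets on the A chip, against 2 and 1 with all arrays. The 3 came without null embryo 1 and the 4 without null embryo 2. For the B chip 0 were called under every alternative. On the A chip 1 was higher with median scaling, no filter or no variance trend, and 2 were lower with median scaling, quantile normalization, no filter or the replicate block. The added fall was that of Ccnd2 with median scaling (adjusted p = 0.0434) and the replicate block (0.0169). Over the tested probe sets same-numbered embryos did not deviate together (correlation of deviations 0.04 for A, -0.05 for B). The labels do not say whether they share a litter or a batch, and this correlation cannot exclude it. Over all probe sets, leaving out 1 array gave 1075 to 1579 higher and 1052 to 1797 lower on the A chip, and 575 to 1244 and 544 to 1354 on the B chip. The other G1/S genes of the B chip, 3 higher and 2 lower with all arrays, gave 0 to 2 higher and 0 to 1 lower with 1 array left out. Among them 1 was higher with no variance trend, and 1 was lower with median scaling, no filter or the replicate block and 0 with no variance trend. The call lost under the block was that of E2f3 (adjusted p = 0.0724). Cdk6 113777_at ran from -0.055 without null embryo 2 to 0.17 without null embryo 1, and Cdkn2c from -0.029 without wild-type embryo 1 (and -0.027 without null embryo 1) to 0.16 without wild-type embryo 2. The cause of these differences was not tested.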
